A study of Saccharomyces cerevisiae with 2 samples.

Results

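The 8 genes described here serve the use of maltose, isomaltose and sucrose in *Saccharomyces cerevisiae*. They were taken by symbol, as *MAL11*, *MAL12*, *MAL13*, *MAL31*, *MAL32*, *MAL33*, YGR287C and *SUC2*, and all 8 were found in both gene tables, out of 5699 genes with a read in at least 1 of them. YGR287C is the isomaltase gene *IMA1*. Expression was measured by sequencing poly(A) RNA from ZK2, labelled a bioethanol strain, and from BYZ1, a laboratory strain. BYZ1 is a diploid made by crossing the S288c derivatives BY4741 and BY4742, and it is labelled as MATa/MATalpha with *his3*delta1, *leu2*delta0 and *ura3*delta0 on both homologs and *lys2*delta0 and *met15*delta0 on a single homolog. No genotype is given for ZK2. Both strains were grown in 25 mL YPD from an initial OD600 of 0.05 and harvested at early stationary phase. The published methods, which do not name ZK2, give each RNA sample as coming from 3 cultures. Per liter, the label of ZK2 lists peptone and glucose at 20 g each with 10 g of yeast extract, and the label of BYZ1 lists peptone and glucose at 2 g each with 1 g of yeast extract. The published methods describe YPD as on the ZK2 label. If the labels are right, strain and medium cannot be told apart.

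The table of ZK2 held 4571 kiloreads (units of 1000 reads) mapped uniquely to 5605 genes, and that of BYZ1 4687 kiloreads on 5671 genes. The median gene had 204 reads in ZK2 and 230 in BYZ1. With a single library from each strain, there is no spread between replicates and the strains could not be compared by a test. The level is given as RPKM, the reads per kilobase of coding length, scaled to a library of 1000000 gene reads. Intervals in parentheses are exact Poisson 95% intervals for levels and exact conditional binomial 95% intervals for ratios. They cover counting error only, and PCR copies of a molecule were not told from separate molecules. Of the genes deleted on both homologs of BYZ1, *URA3* had 123 reads in ZK2 and 0 in BYZ1, and *LEU2* had 360 reads in ZK2 and 1 in BYZ1. *HIS3*, of which *his3*delta1 removes a part, had 159 reads in ZK2 and 156 in BYZ1, with 98.9% of its length covered in ZK2 and 67.4% in BYZ1. Of the genes deleted on a single homolog of BYZ1, *LYS2* had 993 reads in ZK2 and 451 in BYZ1. *MET17* (*MET15*) had 43 reads in ZK2 and 145 in BYZ1, so it was higher in the strain with the deletion.

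Maltose enters the yeast cell through a proton-coupled permease and is split into glucose by maltase, an alpha-glucosidase. A MAL locus holds a gene for each of these proteins and a gene for a zinc-cluster activator that induces them in the presence of maltose. Glucose represses the system, through the Mig1 repressor among others. S288c carries the loci MAL1 (*MAL11* permease, *MAL12* maltase, *MAL13* activator) and MAL3 (*MAL31*, *MAL32*, *MAL33*), and the annotation in the tables calls both activators nonfunctional in this reference strain. Isomaltase splits isomaltose and related sugars. Invertase, the product of *SUC2*, splits sucrose outside the cell, and its secreted form is likewise repressed by glucose.

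In sacCer2, the build named in the submitters' processing notes, the MAL1 genes lay near the right end of chromosome 7, with YGR287C from 1067229 to 1068998 (minus strand), *MAL13* from 1070300 to 1071721 (plus), *MAL11* from 1073970 to 1075820 (minus) and *MAL12* from 1076606 to 1078360 (plus). The MAL3 genes lay on chromosome 2, with *MAL33* from 800517 to 801923 (plus), *MAL31* from 802625 to 804469 (minus) and *MAL32* from 805345 to 807099 (plus). *SUC2* spanned positions 37385 to 38983 of chromosome 9 (plus). In each MAL locus the permease and maltase genes are thus divergent and share the region between them.

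The copies differ greatly in how far they can be told apart by short reads. In R64, the S288c reference of RefSeq, the coding sequences of *MAL12* and *MAL32* were identical at 1747 of 1755 bases (99.5%) and differed at 8. *MAL11* and *MAL31* were identical at 70.2% of aligned bases, and *MAL13* and *MAL33* at 73.0%. The stretch printed here holds 3 of the 8 differences between the maltase genes and shows how little sequence assigns a read to either copy. It covers bases 199 to 258 of each coding sequence (R64, plus strand, chrVII:1076797-1076856 for *MAL12* and chrII:805549-805608 for *MAL32*), and capitals mark the bases at which the genes differ.
MAL12: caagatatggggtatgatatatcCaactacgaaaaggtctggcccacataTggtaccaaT
MAL32: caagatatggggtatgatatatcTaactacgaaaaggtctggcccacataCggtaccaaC

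All 8 genes had a Mig1-type word within 600 bases before the start codon in R64. The words searched, on both strands, were CCGGGG, the variant CTGGGG, the variant GCGGGG and the variant GTGGGG, and 27.8% of the 6021 protein-coding genes (1676) had at least 1 in a window of this length. A match is a description of the letters and not a bound site. The 8 genes held 14 different places of match, and the divergent genes share a place in each locus, 295 bases before *MAL12* and 496 before *MAL11*, and 295 bases before *MAL32* and 586 before *MAL31*. The 400 bases next to the maltase gene were 97.8% identical between MAL1 and MAL3, whereas the 300 bases next to the permease gene were 66.1% identical over aligned bases. The stretches shown run toward the start codon, from 420 to 271 bases before it for the maltase genes (chrVII:1076179-1076328 and chrII:804931-805080, plus strand), from 510 to 391 for *SUC2* (chrIX:36875-36994, plus strand) and from 300 to 161 for YGR287C (chrVII:1069152-1069291, minus strand). Capitals mark the words.
MAL12: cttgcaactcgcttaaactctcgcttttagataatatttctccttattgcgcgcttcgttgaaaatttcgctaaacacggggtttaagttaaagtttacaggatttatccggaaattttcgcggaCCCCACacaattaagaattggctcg
MAL32: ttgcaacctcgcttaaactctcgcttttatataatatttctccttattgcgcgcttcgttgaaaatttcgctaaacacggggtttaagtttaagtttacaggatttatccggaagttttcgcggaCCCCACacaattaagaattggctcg
SUC2: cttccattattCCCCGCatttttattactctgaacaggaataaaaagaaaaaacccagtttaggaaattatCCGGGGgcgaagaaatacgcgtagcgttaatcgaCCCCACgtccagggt
YGR287C: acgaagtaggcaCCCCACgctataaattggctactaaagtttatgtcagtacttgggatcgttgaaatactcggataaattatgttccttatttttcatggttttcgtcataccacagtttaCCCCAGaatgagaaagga

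By RPKM, transcripts of the maltase genes were among the rarest in BYZ1 and plentiful in ZK2. This measure leaves out reads that match both copies, and levels per unique position are given below. *MAL12* had 2840 reads in ZK2, an RPKM of 354 (341 to 367), against 1 read in BYZ1, an RPKM of 0.122 (0.0031 to 0.677). Its ratio of ZK2 to BYZ1 was 2912 (522 to 115061). *MAL32* had 2041 reads in ZK2, an RPKM of 254 (244 to 266), against 4 reads in BYZ1, at an RPKM of 0.486 (0.132 to 1.25). Its ratio was 523 (204 to 1922). With so few reads in BYZ1 the size of either ratio is known only within its wide interval, but the levels of the strains lay far apart.

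**Figure D1:**
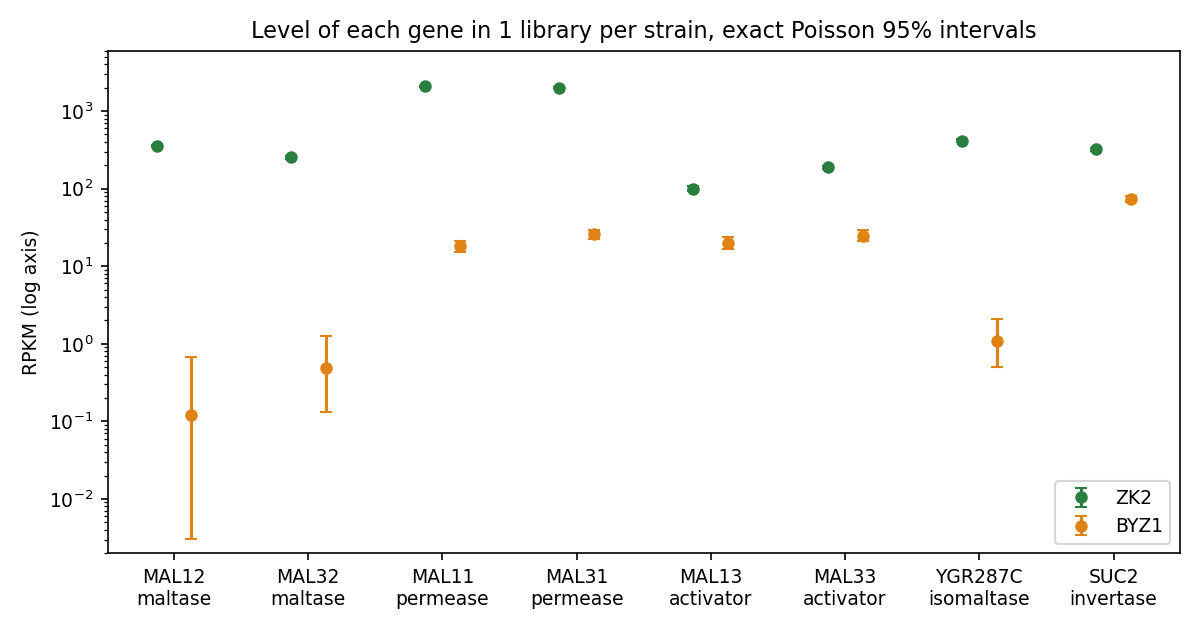
RPKM of the 8 genes on a log axis in ZK2 (green) and BYZ1 (orange), 1 library each, with exact Poisson 95% intervals as bars. By this measure the permease genes are highest in ZK2, at 2003 and 2089. The maltase and isomaltase genes, at about 1 or less in BYZ1, are at 254 to 417 in ZK2. Reads that match both maltase genes are left out.

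By RPKM, the permease genes had the highest levels of the 8 in ZK2. Per unique position, as given below, *MAL12* stood above both, at 2276 against 2145 and 2057. *MAL11*, also known as *AGT1*, a permease of broad alpha-glucoside range, had 17676 reads in ZK2, an RPKM of 2089 (2058 to 2120), and 156 reads in BYZ1, at an RPKM of 18.0 (15.3 to 21.0). Its ratio was 116 (99.2 to 137). *MAL31*, the maltose permease of MAL3, had 16894 reads in ZK2, an RPKM of 2003 (1973 to 2034), and 223 reads in BYZ1, at an RPKM of 25.8 (22.5 to 29.4). Its ratio was 77.7 (68.1 to 89.1). By RPKM they ranked 60 and 69 among the 5699 genes in ZK2, against 4188 and 3567 in BYZ1.

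The activator genes differed much less between the strains. *MAL13* had 652 reads in ZK2, an RPKM of 100.3 (92.8 to 108), against 134 reads in BYZ1, at an RPKM of 20.1 (16.8 to 23.8). Its ratio was 4.99 (4.14 to 6.05). *MAL33* had 1207 reads in ZK2, an RPKM of 188 (177 to 199), and 164 reads in BYZ1, at an RPKM of 24.9 (21.2 to 29.0), a ratio of 7.55 (6.41 to 8.94). In BYZ1 reads covered 92.8% of *MAL13* and 93.8% of *MAL33*, so both were detected along most of their length. Their ratio intervals lay far below those of the permease and maltase genes.

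YGR287C, the isomaltase gene beside MAL1, was near the limit of detection in BYZ1, as the maltase genes were. It had 3374 reads in ZK2, an RPKM of 417 (403 to 431), against 9 reads in BYZ1, at an RPKM of 1.08 (0.496 to 2.06), and its ratio was 384 (202 to 841). *SUC2* had the highest level of the 8 in BYZ1. It had 2357 reads in ZK2, an RPKM of 322 (310 to 336), and 552 reads in BYZ1, at an RPKM of 73.7 (67.6 to 80.1). Its ratio of 4.38 (3.99 to 4.81) was the smallest of the 8.

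Together the 8 genes took 47041 reads in ZK2, 1.03% of its gene reads (exact binomial 95% interval 1.02% to 1.04%). In BYZ1 they took 1243 reads, 0.0265% (0.0251% to 0.0280%). A bulk library cannot tell apart a few cells with many of these transcripts from many cells with fewer.

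The deposited counts hold uniquely mapped reads only, so the RPKM of genes with a near-identical copy leaves out the reads that match both copies. Of the 1707 windows of 49 bases in each maltase gene, 273 in *MAL12* (16.0%) and 266 in *MAL32* (15.6%) occurred once in the R64 genome. These windows span 30.7% of either coding sequence. Unique reads covered 28.7% of *MAL12* and 23.1% of *MAL32* in ZK2, against 2.79% and 7.58% in BYZ1. In ZK2 the covered part of *MAL12* was thus 93.7% as long as the part that is unique in R64, and that of *MAL32* 75.3%. With up to 2 mismatches allowed, only 0.762% of the windows of either gene were unique. Every window of *MAL11*, *MAL31*, *MAL13* and *SUC2* was unique, and 94.1% of those of *MAL33* and 91.6% of those of YGR287C. These 4 fully unique genes were covered over 99.65% to 99.95% of their length in ZK2 and 89.8% to 98.7% in BYZ1. *MAL33* was covered over 93.7% in ZK2 and 93.8% in BYZ1 in spite of the difference in reads. The window is the read length of BYZ1, and that of ZK2 was taken to be the same. The windows rest on the S288c sequence, and neither the sequence of ZK2 nor its number of MAL copies was used here.

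**Figure D2:**
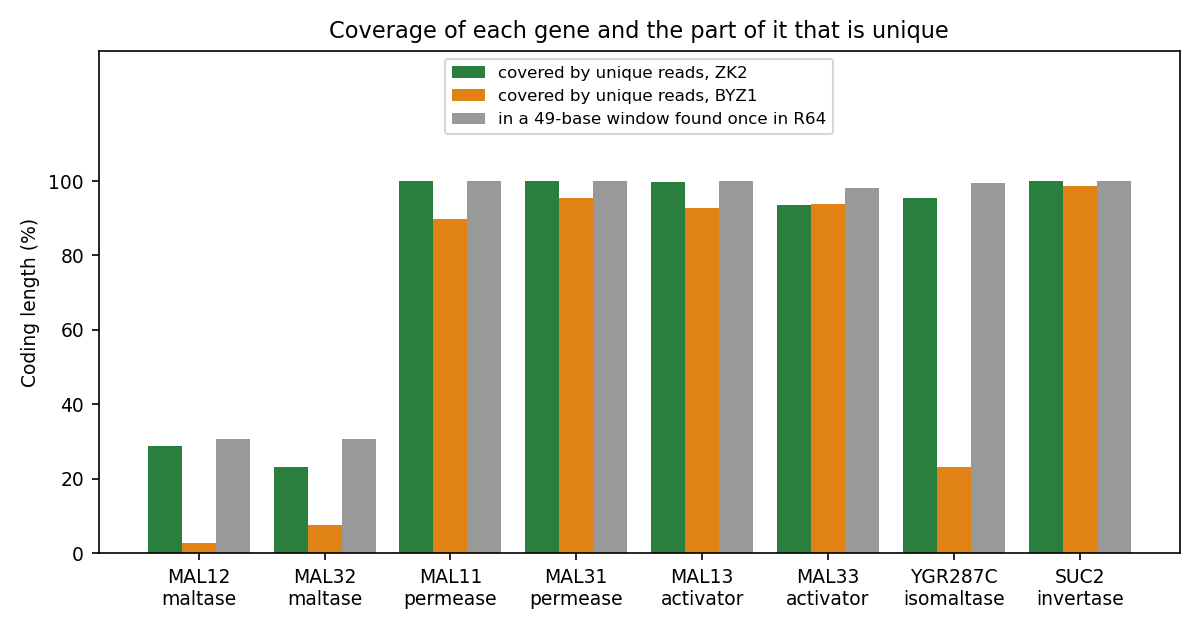
Percent of the coding length of each gene covered by unique reads in ZK2 (green) and BYZ1 (orange), as deposited, and percent lying in 49-base windows found once in R64 (gray). Coverage of *MAL12* and *MAL32* in ZK2, 28.7% and 23.1%, stays below the 30.7% that is unique.

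Counted per unique position instead of per coding base, the maltase genes of ZK2 stood near the level of the permease genes. Unique positions here are windows found once in R64 by exact match, 273 in *MAL12* and 266 in *MAL32*. The published mapping allowed 2 mismatches, at which 13 windows of either gene are unique. These span 3.48% of either coding sequence. Unique reads covered more than that, 28.7% of *MAL12* and 23.1% of *MAL32* in ZK2 and 7.58% of *MAL32* in BYZ1. The deposited unique reads were thus not limited to these 13 windows. The intervals do not cover the choice of exact windows or differences between ZK2 and R64. On the scale of RPKM with unique positions in place of coding length, *MAL12* was at 2276 (2193 to 2361) in ZK2 and 0.782 (0.0198 to 4.35) in BYZ1, and *MAL32* was at 1679 (1607 to 1753) in ZK2 and 3.21 (0.874 to 8.21) in BYZ1. On the same scale *MAL11* was at 2145 in ZK2 and 18.5 in BYZ1, and *MAL31* at 2057 in ZK2 and 26.5 in BYZ1. The ratio of maltase to permease in ZK2 was therefore 1.06 (1.02 to 1.10) in MAL1 and 0.816 (0.779 to 0.855) in MAL3. In BYZ1 it was 0.0423 (0.0011 to 0.239) in MAL1 and 0.121 (0.0327 to 0.315) in MAL3. By RPKM the same ratios in ZK2 were only 0.169 and 0.127. The ratio of activator to permease per unique position moved the other way, at 0.0484 (0.0447 to 0.0523) in MAL1 and 0.1004 (0.0946 to 0.106) in MAL3 of ZK2. In BYZ1 it was 1.13 (0.888 to 1.43) in MAL1 and 1.03 (0.839 to 1.27) in MAL3, and both intervals held 1.

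**Figure D3:**
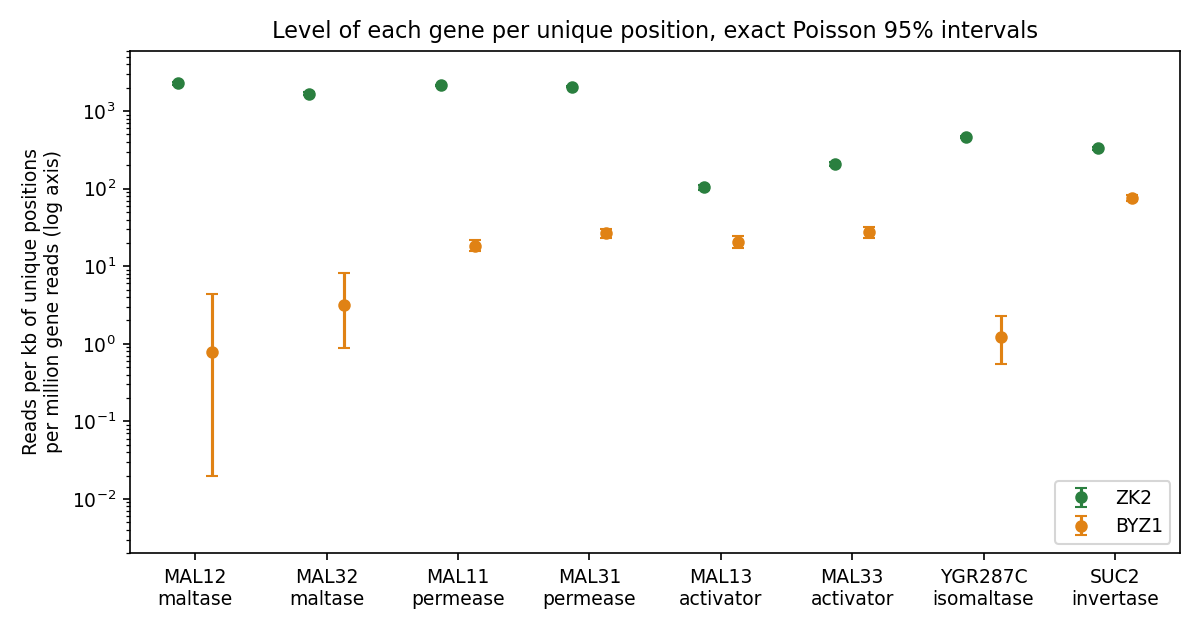
Reads per kilobase of unique positions, scaled to 1000000 gene reads, on a log axis in ZK2 (green) and BYZ1 (orange), with exact Poisson 95% intervals as bars. In ZK2 the maltase genes (2276 and 1679) sit beside the permease genes (2145 and 2057), and in BYZ1 the permease and activator genes sit together at 18.5 to 27.4.

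For the comparison over all genes, the log2 ratio of ZK2 to BYZ1 was taken on RPKM plus 1. It was read for the 5080 genes that reached an RPKM of 10 in either strain, and a difference of 1 or more on this scale, up or down, was called. All 8 members passed this filter and were called higher in ZK2, where 7.91% of all genes tested were called higher and 10.3% lower. *MAL12*, *MAL32* and YGR287C passed the filter through ZK2 alone, which favours a call. Of the 179 genes that did so, 88 (49.2%) were called higher. The other 5 members reached the filter in both strains. The log2 ratio was 8.31 for *MAL12*, 7.65 for YGR287C, 7.43 for *MAL32*, 6.78 for *MAL11* and 6.23 for *MAL31*, which ranked 1, 2, 3, 4 and 6 among all genes tested. This order rests on the pseudocount of 1. With a pseudocount of 5 *MAL11* led the members at 6.51, followed by *MAL12* at 6.13, YGR287C at 6.12, *MAL31* at 6.03 and *MAL32* at 5.56. With a pseudocount of 1, *MAL33* had 2.87 (rank 37), *MAL13* 2.26 (rank 74) and *SUC2* 2.12 (rank 92). The median of the 8 was 6.50, beside -0.17 over all genes tested. Each member's log2 ratio is thus 0.17 larger when read against the typical gene.

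**Figure D4:**
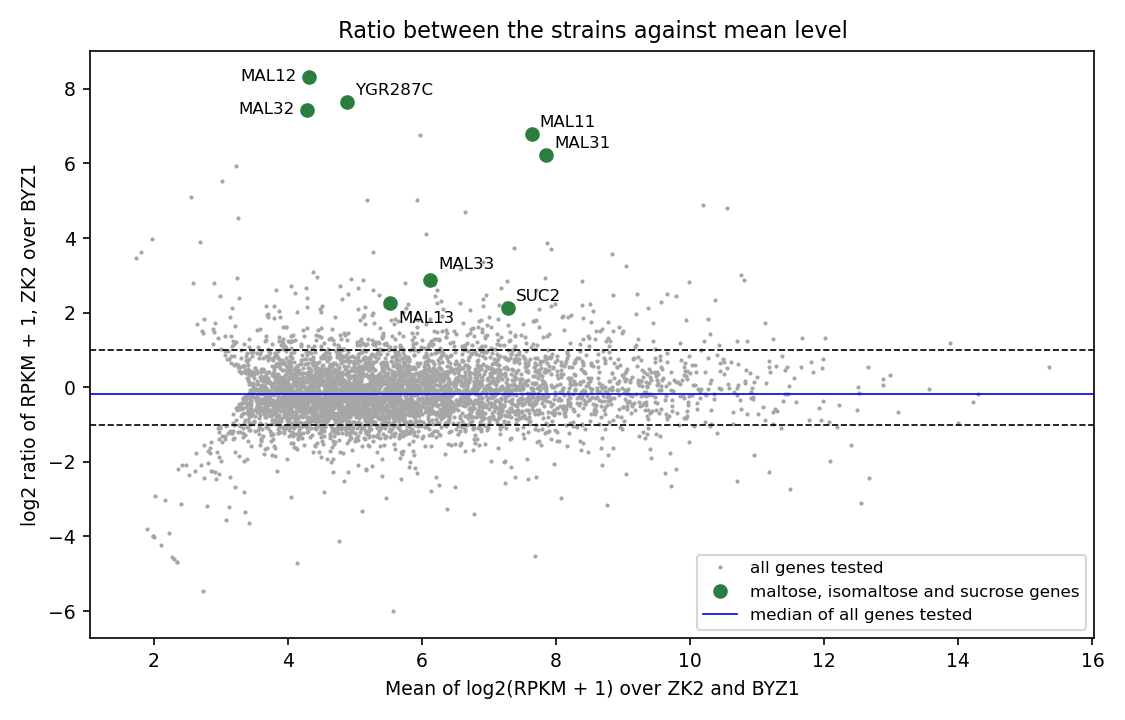
log2 ratio of RPKM plus 1 of ZK2 over BYZ1 against the mean log2 level of the libraries, for the 5080 genes tested (gray) and the 8 members (green), with the call threshold dashed and the median of -0.17 in blue. The maltase, permease and isomaltase genes lie between 6.23 and 8.31, and the activator genes and *SUC2* between 2.12 and 2.87.

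Summed by function and scaled to the library totals, the reads of maltase differed most and those of invertase least. Maltase reads were 4881 in ZK2 and 5 in BYZ1, a ratio of 1001 (429 to 3084). Isomaltase followed at 384 (202 to 841), and its interval overlapped that of maltase. Permease reads were 34570 in ZK2 and 379 in BYZ1, with a ratio of 93.5 (84.5 to 104), below both. Activator reads were 1859 in ZK2 and 298 in BYZ1, a ratio of 6.40 (5.66 to 7.25), and invertase, at 4.38 (3.99 to 4.81), lay below the activators. Summed by locus, MAL1 had 21168 reads in ZK2 and 291 in BYZ1, a ratio of 74.6 (66.4 to 84.0). MAL3 had 20142 reads in ZK2 and 391 in BYZ1, a ratio of 52.8 (47.8 to 58.5). The intervals of the loci did not overlap. These sums are mostly permease reads, and maltase adds only its unique reads. In ZK2 *MAL11* had 17676 reads of the MAL1 sum and *MAL31* 16894 of the MAL3 sum, and in BYZ1 they had 156 and 223. How far these orders would hold between cultures is unknown with 1 library per strain.

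Of the gene pairs across the loci, the permease genes were the closest to each other in ZK2. The RPKM ratio of *MAL11* to *MAL31* was 1.04 (1.02 to 1.07) in ZK2, against 0.697 (0.565 to 0.859) in BYZ1. That of *MAL12* to *MAL32* was 1.39 (1.31 to 1.47) in ZK2. In BYZ1 it was 0.25 (0.0051 to 2.53), from 1 and 4 reads, so the order of the maltase genes there is not known. The activators ran the other way, with a ratio of *MAL13* to *MAL33* of 0.534 (0.485 to 0.588) in ZK2 and 0.808 (0.639 to 1.02) in BYZ1. Per unique position the ratio in BYZ1 was 0.761 (0.601 to 0.961), with an upper bound below 1. By RPKM, MAL3 thus held the more abundant activator transcript in ZK2, and MAL1 the more abundant maltase and permease transcripts. The maltase order rests on the few R64 positions that tell the copies apart. The permease ratio of 1.04 lies close to 1, and its interval covers counting error only. For none of these orders was the sequence of ZK2 used. In ZK2 the covered part was 93.7% as long as the unique part for *MAL12* and 75.3% for *MAL32*. By coverage the ratio in ZK2 was 1.24 for maltase but fell on the other side of 1 for permease (0.9994) and activator (1.06). In ZK2 *MAL11*, *MAL31* and *MAL13* were covered over 99.65% or more of their length. *MAL33* was covered over 93.7%, with 98.2% of its bases unique. Coverage so near its upper limit cannot order the levels of these genes.

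Those relatives of these genes with unique reads in both libraries had an RPKM of 34.5 or less in both strains. The isomaltase gene *IMA2* (YOL157C), 89.3% identical to YGR287C, had 80 reads in ZK2 and 40 in BYZ1. Its RPKM was 9.89 in ZK2 and 4.82 in BYZ1, a ratio of 2.05 (1.39 to 3.08). Only 40.5% of its windows are unique, and 0.929% with up to 2 mismatches allowed. Reads covered less of *IMA2* in ZK2 (31.0%) than in BYZ1 (43.1%) in spite of the higher count, so its level and ratio are uncertain. Whether reads of YGR287C were placed on it was not tested. *IMA5* (YJL216C) had 58 reads in ZK2 and 18 in BYZ1, a ratio of 3.30 (1.92 to 5.96). *IMA3* and *IMA4*, identical in R64, have no unique window and had no unique read in either library. None of these 4 genes passed the filter, though with the TMM factor of edgeR as the scale *IMA2* passed and was called, at a log2 ratio of 1.06. The alpha-glucoside permease genes *MPH2* and *MPH3* had 0 reads in ZK2 and 2 and 6 in BYZ1, but only 2.69% and 2.44% of their windows are unique, so their level is not known. Reads of YGR287C and the *IMA* genes that match several of them are lost in the same way as for maltase.

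Of the activator relatives, YPR196W, annotated as a putative maltose-responsive factor and 78.1% identical to *MAL33*, had 223 reads in ZK2 and 51 in BYZ1. Its RPKM was 34.5 in ZK2 and 7.70 in BYZ1, its ratio 4.48 (3.29 to 6.20), and it was called higher. *ZNF1* (YFL052W), a zinc-cluster factor of respiratory growth, had 0 reads in ZK2, where a limit of 3 reads corresponds to an RPKM of 0.469, and 64 reads in BYZ1, at an RPKM of 9.77. The exact upper limit of its ratio was 0.0608, and it lay just under the filter. Every window of *ZNF1* is unique in R64. YFL051C, the systematic name before that of *ZNF1*, had 12 reads in ZK2 and 31 in BYZ1. The genes with the systematic names after it, *DAK2*, YFL054C, *AGP3* and *AAD6*, had 0 reads in ZK2, as *ZNF1* did. In BYZ1 they had 24, 213, 140 and 45 reads. Whether ZK2 carries *ZNF1* or these genes without a read there was not tested.

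Of 13 genes of glucose repression, 2 were called higher and 3 lower in ZK2, where 7.91% of all genes tested were higher and 10.3% lower. Their median log2 ratio was -0.33, beside -0.17 over all genes. The lower ones were the repressor genes *MIG1* and *MIG3* and the hexokinase gene *HXK2*, whose product takes part in repression. *MIG1*, whose product acts on MAL genes and *SUC2*, had 79 reads in ZK2, an RPKM of 11.4, against 325 reads in BYZ1, at an RPKM of 45.8, with a ratio of 0.249 (0.192 to 0.320). *MIG3* was at 4.62 in ZK2 and 12.2 in BYZ1, and *HXK2* at 27.7 in ZK2 and 60.3 in BYZ1. The repressor gene *MIG2* was not called, at 19.6 in ZK2 and 17.6 in BYZ1, a ratio of 1.11 (0.833 to 1.49). The call of *HXK2* ended with the TMM factor as the scale, at a log2 ratio of -0.92. The higher ones were *SNF4*, the activating subunit of the Snf1 kinase, at 86.9 in ZK2 and 38.1 in BYZ1, and the corepressor gene *TUP1*, at 311 in ZK2 and 140 in BYZ1. *SNF1* itself had an RPKM of 67.9 in ZK2 and 73.2 in BYZ1. Of 5 genes of the SWI/SNF remodeler, needed for *SUC2* transcription, *SNF5* was called lower, at 26.6 in ZK2 and 68.1 in BYZ1, and the other 4 were not called. Among these, *SWI1* was at 20.5 in ZK2 and 16.7 in BYZ1, *SWI3* at 27.4 in ZK2 and 36.7 in BYZ1, and *SNF2* at 37.7 in ZK2 and 61.0 in BYZ1. Whether these levels bear on the 8 genes was not tested.

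Genes beside the loci differed less, or in the other direction. Of 23 genes within 10 kb of the members, 19 passed the filter, with 3 called higher and 3 lower in ZK2, beside 7.91% and 10.3% of all genes tested. On the inner side of MAL1, *BIO2*, the biotin synthase gene, was at 17.1 in ZK2 and 30.1 in BYZ1, and on the telomere side *COS6* was at 222 in ZK2 and 69.6 in BYZ1. The gene *COS6* belongs to a subtelomeric family of similar members, so its value is uncertain. Next to MAL3, the sodium-phosphate cotransporter gene *PHO89* was lower, with 330 reads in ZK2 (RPKM 41.9) and 7945 in BYZ1 (RPKM 983). YBR296C-A, between it and *MAL33*, had 1 read in ZK2 and 7 in BYZ1. Its lower call came through BYZ1 alone and rests on these reads, with a ratio of 0.146 (0.0033 to 1.14) whose interval holds 1. Beside *SUC2*, *POT1*, the peroxisomal thiolase gene, was at 306 in ZK2 and 469 in BYZ1, and *NIT1* at 12.8 in ZK2 and 12.1 in BYZ1. The remaining calls were *BGL2* (2836 in ZK2 and 1199 in BYZ1) and YIL166C (124 in ZK2 and 43.6 in BYZ1), both higher, and YIL161W (16.7 in ZK2 and 37.4 in BYZ1), lower. The call of YIL161W ended with the TMM factor, at -0.95. The log2 ratios of the 3 flanking genes called higher ran from 1.24 to 1.66, below that of any member. Of the flanking genes not called, log2 ratios were 0.16 for *YOR1*, 0.20 for *ERV29*, -0.46 for *ZUO1* and -0.87 for YGR283C near MAL1, and -0.39 for *SUL1* and 0.30 for *PCA1* near MAL3. Near *SUC2* they were -0.07 for YIL165C, -0.03 for *COA1*, -0.07 for YIL156W-B and -0.50 for *UBP7*. Under the filter lay *BNR1* (114 reads in ZK2 and 183 in BYZ1), *AIM20* (23 in ZK2 and 27 in BYZ1), *PAU12* (0 in ZK2 and 1 in BYZ1) and *PAU24* (1 in ZK2 and 2 in BYZ1).

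**Figure D5:**
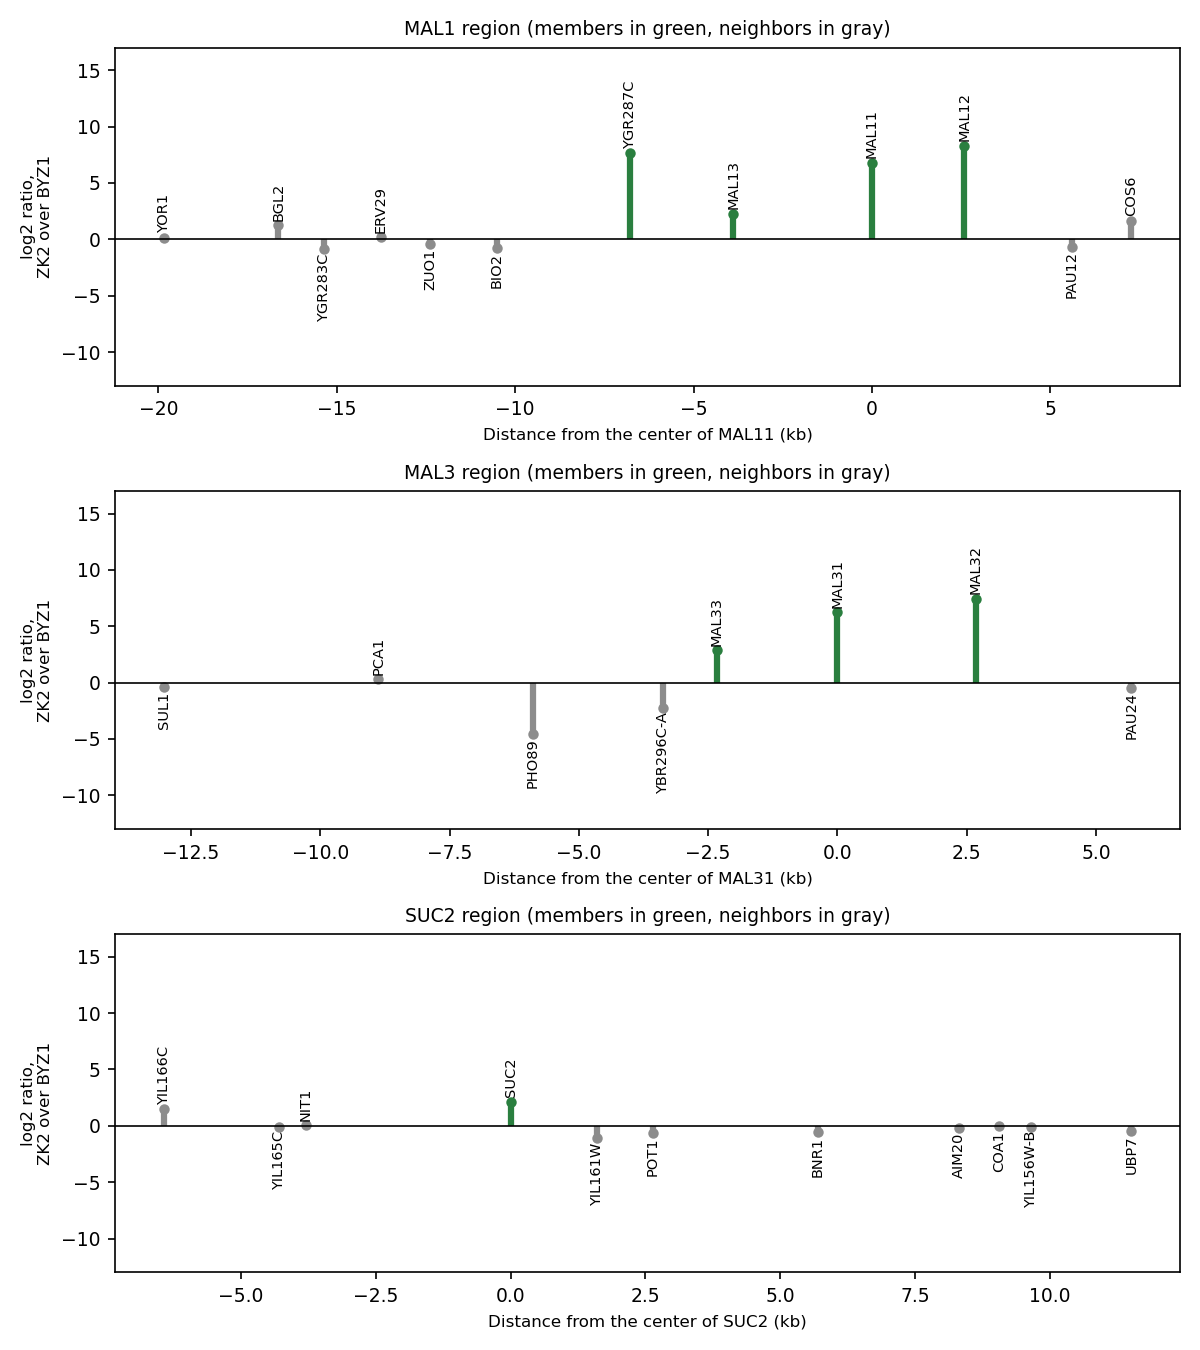
log2 ratio of RPKM plus 1 of ZK2 over BYZ1 for the members (green) and the genes within 10 kb of them, those under the filter included (gray), by distance in kb from the center of *MAL11*, *MAL31* or *SUC2*. Members stand at 2.12 to 8.31, and *PHO89*, next to MAL3, at -4.52.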

How the data were processed

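The authors dropped reads that held adapter or in which over 50% of the bases had a quality no higher than 5, and SOAPAligner placed the others on the genes of S288c or YJSH1. Its version, and the aligner of the ZK2 library, are not given in the sources used here. The deposited read counts are uniquely mapped reads per gene, without normalization, and they sum to the total in each file header, so a gene not listed was given 0 reads. The deposited RPKM was recomputed from count, coding length and total. The coverage, deposited as a percent of the gene's length, was used unchanged. The submitters' processing notes name sacCer2. Coordinates of genes are from that build, and sequences and windows from R64 with the RefSeq annotation. Of 5699 gene identifiers, 5693 matched R64.

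Intervals are 95%, exact Poisson for levels, conditional binomial (Clopper-Pearson) for ratios. For a count of 0 the limit was set at 3 reads. Log2 ratios carry a pseudocount of 1 on RPKM, which understates the change of low genes, over genes that reached an RPKM of 10 in either strain. Windows of 49 bases were searched on both strands. Alternatives were the TMM factor of edgeR 4.0.16, the median of gene ratios, totals that leave out the top 10 genes by RPKM, a pseudocount of 0.1 or of 5, no filter or an RPKM of 50 as the filter, and unique positions or coverage in place of RPKM. Steps were tested on simulated data (Python 3.11.15, scipy 1.17.1, Biopython 1.88). The members and gene lists were chosen with earlier results of these data known. By rule the text names all members, their relatives, in longer lists the 2 highest and 2 lowest ratios, genes within 10 kb, and the 3 genes nearest in level to the members of highest and lowest ratio. *HXK2*, *SNF1*, *MIG2*, the neighbors of *ZNF1* and, in the check of the strain label, *HIS3*, *LEU2*, *URA3*, *LYS2* and *MET17* were named beside these. *HXK2*, *SNF1*, *MIG2* and the neighbors of *ZNF1* were named after their values were seen.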

Additional observations from a re-analysis of the deposited data

Results flagged for a closer look

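For 2 functions, the RPKM ratio of MAL1 to MAL3 lay above 1 in ZK2 and below 1 in BYZ1. For the permease genes, the RPKM ratio of *MAL11* to *MAL31* was 1.04 in ZK2 and 0.697 in BYZ1, though by coverage it lay below 1 in both strains, at 0.9994 in ZK2 and 0.941 in BYZ1. Both permease genes were covered almost in full in ZK2, so coverage cannot order them there. For the maltase genes, the ratio of *MAL12* to *MAL32* was 1.39 in ZK2 and 0.25 in BYZ1, where it rests on 1 and 4 reads and its interval (0.0051 to 2.53) holds 1, so the order of the maltase genes there is not known. With 1 library per strain the difference was not tested in either case.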

How the results depend on the processing

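All 8 members were called higher in ZK2 under each of the 7 alternative scales, pseudocounts and filters, with log2 ratios from 2.06 to 10.64. With the TMM factor the log2 ratio of the summed RPKM was 6.69 for permease, 2.29 for invertase, 6.19 for MAL1 and 5.73 for MAL3, against 6.51, 2.12, 6.02 and 5.55. With the median of gene ratios these were 6.69, 2.29, 6.20 and 5.73. Both scales bring the median of all genes from -0.17 to 0.00 and 0.01. With a pseudocount of 5, maltase gave 6.77 and isomaltase 6.12, against 8.57 and 7.65, since their BYZ1 levels lie under the pseudocount. Coverage in place of RPKM gave a MAL1 to MAL3 ratio of 0.999 for permease and 1.06 for activator in ZK2, both on the other side of 1 from RPKM, 1.24 for maltase in ZK2 and 0.941 for permease in BYZ1. Coverage nears its upper limit in deeply read genes. Over all genes, 402 were called higher and 524 lower in ZK2. With the TMM factor these were 536 and 339, with the median of gene ratios 541 and 341, and with an RPKM of 50 as the filter 283 and 274, from 2573 genes tested. No paired analysis was possible because each strain has 1 library, and no library could be left out. Ratios of *MAL12*, *MAL32* and YGR287C are limited by their 1, 4 and 9 reads in BYZ1.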

Other observations

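The genes nearest to *MAL12*, by distance of log2(RPKM + 1) over ZK2 and BYZ1, were *LEU2*, *CTR3* and *HXT7*, at distances of 2.29, 2.57 and 2.62. *LEU2*, a leucine synthesis gene, is deleted in BYZ1. *CTR3*, the copper transporter gene, had an RPKM of 652 in ZK2 and 4.996 in BYZ1. The published study describes a Ty2 insertion that interrupts *CTR3* in BYZ1. It proposes this as a possible reason for low expression there, which was not tested here. *HXT7*, a high-affinity glucose transporter gene with a near-identical copy, had 205 in ZK2 and 5.36 in BYZ1. *SUC2* had closer company, *SAH1*, *PMP2* and *TIS11*, at distances of 0.114, 0.205 and 0.286. *SAH1*, which encodes S-adenosylhomocysteine hydrolase, was at 328 in ZK2 and 68.1 in BYZ1, *PMP2*, a proteolipid gene of the plasma membrane, at 303 in ZK2 and 64.7 in BYZ1, and *TIS11*, an mRNA-binding protein gene of iron limitation, at 264 in ZK2 and 73.1 in BYZ1. Likeness over 2 libraries is a description of level only.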
